A study of Mus musculus with 6 samples.

Results

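Transcript levels of 8 genes of phosphate handling and mineralization were described in primary mouse osteoblasts, the bone-forming cells, of WT and TCKO mice. The genes were listed by name as Alpl, Enpp1, Phospho1, Smpd3, Slc20a1, Slc20a2, Phex and Mgp, and all 8 were found among the 55471 genes of the count table. The TCKO mice carried Prx1-Cre, a recombinase driven in limb and skull mesenchyme, together with floxed alleles, on both chromosomes, of Tet1 (Tet1 fl/fl), of Tet2 (Tet2 fl/fl) and of Tet3 (Tet3 fl/fl). The Tet genes encode dioxygenases that oxidise methylated cytosine. The WT mice are labelled wild type, and the labels do not say whether they carried the floxed alleles or the Cre. All mice were 3 days old and of strain C57BL/6, and the cells came from calvarial bone and were cultured before poly(A) RNA was taken. There were 3 libraries per genotype, and nothing stated whether they came from separate animals, so the p-values measure the spread between these libraries.

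Bone mineral is calcium phosphate, which forms in and around small vesicles that bud from osteoblasts and hypertrophic chondrocytes. Phosphate for it is released by phosphatases from pyrophosphate and phosphocholine and moved across membranes by sodium-phosphate cotransporters. Pyrophosphate itself blocks crystal growth, so the enzymes that make and break it act against each other. Matrix proteins such as MGP also hold mineral back. In osteoblast cultures the activity of the enzyme encoded by Alpl is the usual readout of differentiation.

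Libraries held between 8019999 and 10177214 counts. Replicates 1 and 2 of each genotype were close to each other and far from replicate 3. Their chi-square statistic over genes, divided by its degrees of freedom, was 1.69 in WT and 2.04 in TCKO, against 16.5 to 23.3 for pairs that include replicate 3. Mitochondrial genes took 1.11% to 1.24% of the counts in replicates 1 and 2 and 2.22% and 2.47% in replicate 3. The replicate 3 pair also differed in sex-linked transcripts. TCKO replicate 3 held 4583 counts of Xist and 0 of Ddx3y, and WT replicate 3 held 2 and 936. All libraries but TCKO replicate 3 held at most 4 counts of Xist and at least 675 of Ddx3y. The part of this difference in the replicate 3 values was not tested. Values by replicate number are therefore given beside the results. Tet1 was lower in TCKO (log2 fold change -0.97 ± 0.16 (SE), edgeR adjusted p = 0.00648), Tet2 had a log2 fold change of -0.14 with no call, and Tet3 was higher (0.51 ± 0.09, edgeR adjusted p = 0.00745). These counts are summed over whole genes, so they cannot show whether the floxed parts were deleted, and deletion was not tested here. The study itself checked the knockout by RT-qPCR of the Tet genes, in bone and liver tissue. It also measured them by RT-qPCR in differentiated WT and TCKO osteoblasts. The directions given here rest on the labels of the libraries. Of the markers fixed for osteoblasts, Runx2 and Col1a1 were counted in every library, while the late markers Bglap, Bglap2 and Ifitm5 had at most 5 counts in any library. Of the osteocyte markers, Mepe, Sost and Fgf23 were at 0 counts in all 6 libraries, which allows a level of up to 0.295 to 0.374 CPM (3 counts of the library, counting error only).

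Levels of the 8 genes were first compared per length of transcript, as RPKM (counts scaled by the exon length of the gene and by the size of the library). In WT cells the order was Slc20a1 at 48.3 ± 11.6 RPKM, Mgp at 19.9 ± 4.07, Alpl at 7.53 ± 5.84, Slc20a2 at 5.26 ± 0.344, Enpp1 at 1.65 ± 0.545, Phospho1 at 0.604 ± 0.376, Smpd3 at 0.477 ± 0.0494 and Phex at 0.0672 ± 0.0257 (SD, n = 3). The libraries of neighbours in this order overlapped for Alpl and Slc20a2 and for Phospho1 and Smpd3. In TCKO cells Slc20a1 again stood first, at 131 ± 1.04 RPKM, followed by Mgp at 10.7 ± 2.90, Slc20a2 at 7.99 ± 0.852 and Enpp1 at 2.06 ± 0.725. Alpl stood sixth in TCKO, at 0.636 ± 0.304 RPKM, where its libraries overlapped those of Phospho1 (0.683 ± 0.273) and Smpd3 (0.556 ± 0.450). Mgp and Slc20a2 also overlapped there. Phex remained lowest, at 0.170 ± 0.116 RPKM. The place of Phospho1 is uncertain in both genotypes, because exons of Zfp652 on the same strand cover 1818 of its 2029 exon bases.

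**Figure D1:**
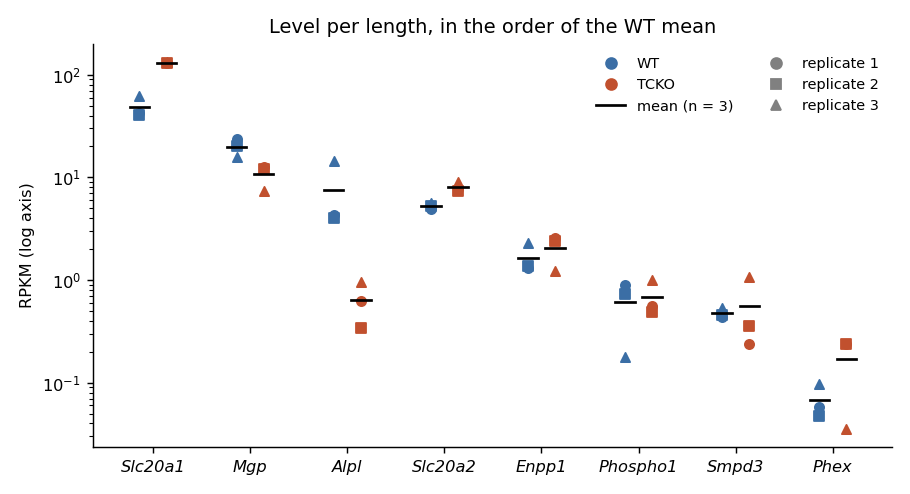
Level of the 8 genes in RPKM on a log axis, 1 point per library (blue, WT; red, TCKO; symbols mark the replicate number) with the mean of 3 libraries as a line. Slc20a1 was highest in both genotypes, and Alpl had a mean of 7.53 RPKM in WT and 0.636 in TCKO. The level of Phospho1 is uncertain, since most of its exon bases are shared with Zfp652.

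Genotypes were then compared gene by gene, on counts and on CPM (counts scaled by the size of the library alone). Alpl and Mgp were lower and Slc20a1 and Slc20a2 were higher in TCKO. Enpp1, Phospho1 and Smpd3 did not pass the test. A gene passed when its edgeR quasi-likelihood p, adjusted by the Benjamini-Hochberg method over all 13826 tested genes, was under 0.05. Of the 8 genes, 7 had enough counts for the test and Phex did not. The 4 genes that passed were 57.1% of those tested, against 17.7% of all tested genes, with 2 higher (all genes, 9.07%) and 2 lower (all genes, 8.63%). Past the further cutoff of a fold over 2 were 2 of the 7, against 6.35% of all tested genes, namely Slc20a1 among the higher genes (all genes, 3.16%) and Alpl among the lower ones (all genes, 3.19%). The same 4 genes had libraries that did not overlap between the genotypes, a property of 38.3% of the tested genes. The median log2 fold change was 0.23 over the 7 genes and 0.0002 over all tested genes.

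**Figure D2:**
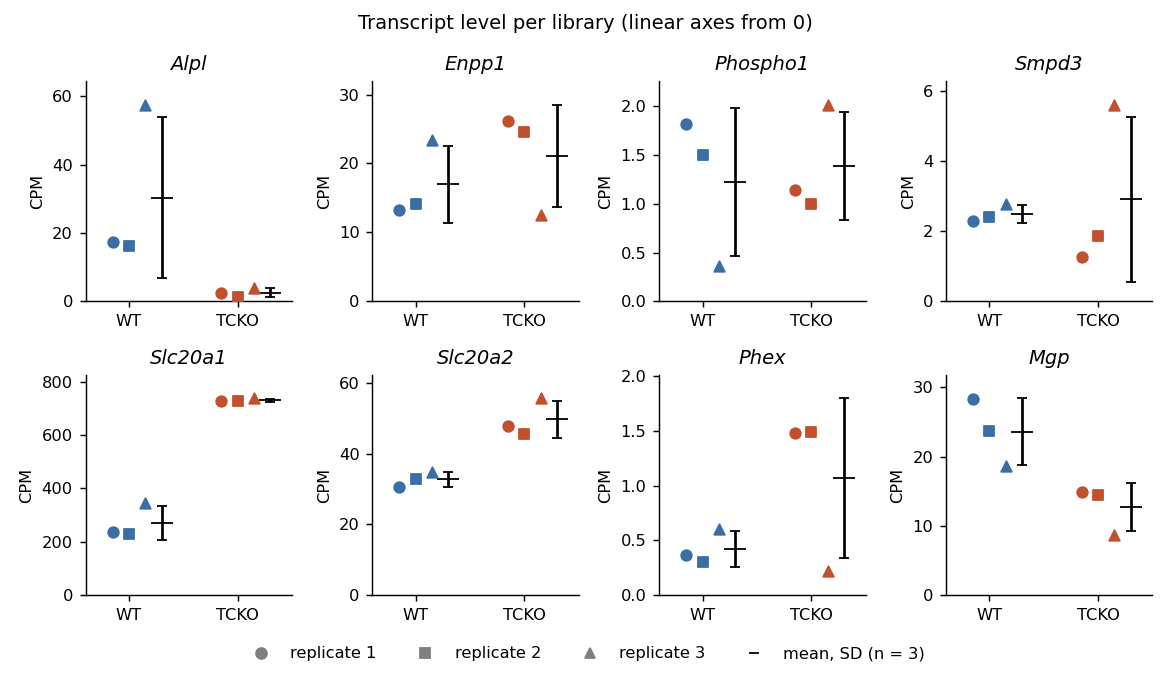
Level of each gene in CPM in the 3 WT (blue) and 3 TCKO (red) libraries, with the mean and SD beside the points, on linear axes from 0. The genotypes were apart for Alpl, Slc20a1, Slc20a2 and Mgp and overlapped for the other genes, where the order of the genotypes in replicate 3 (triangles) was opposite to that in replicates 1 and 2.

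Alpl encodes tissue-nonspecific alkaline phosphatase, the membrane enzyme that hydrolyses pyrophosphate at the surface of osteoblasts and matrix vesicles. The gene (ENSMUSG00000028766) lies on the minus strand of chromosome 4, from 137741733 to 137796384 (GRCm38). Its 143, 163 and 475 counts in WT replicates 1, 2 and 3 correspond to 17.3, 16.3 and 57.6 CPM. In the TCKO libraries the levels were 2.51, 1.37 and 3.81 CPM, from 22, 11 and 34 counts. Every TCKO library was below every WT library, and within each genotype replicate 3 was the highest. The fitted level was 11.6-fold lower in TCKO (log2 fold change -3.54 ± 0.62 (SE), edgeR adjusted p = 0.00743), which ranked 20 of all tested genes from the lowest fold change. The log2 difference was -2.68 in replicate 1, -3.37 in replicate 2 and -3.84 in replicate 3. Without WT replicate 3 the fold change was -2.69 on the log2 scale, and with replicates 1 and 2 of each genotype summed the edgeR adjusted p was 0.0654 (range over the alternatives, 6.4e-21 to 0.0654).

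RefSeq lists 2 starts of Alpl in GRCm38.p6, an upstream one at the outer end of the gene and one inside it, and the 250 bases before each are shown because their content of CpG, the dinucleotide that carries the methyl groups TET enzymes oxidise, differed. Capitals mark CpG, and the sequences read 5′ to 3′ on the minus strand.
Alpl upstream start, chr4:137796385-137796634: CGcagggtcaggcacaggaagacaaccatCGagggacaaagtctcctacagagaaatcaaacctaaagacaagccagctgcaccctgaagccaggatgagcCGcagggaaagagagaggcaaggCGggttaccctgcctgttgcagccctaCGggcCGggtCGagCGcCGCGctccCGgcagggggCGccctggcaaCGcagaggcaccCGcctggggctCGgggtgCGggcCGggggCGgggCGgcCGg
Alpl inner start, chr4:137766476-137766725: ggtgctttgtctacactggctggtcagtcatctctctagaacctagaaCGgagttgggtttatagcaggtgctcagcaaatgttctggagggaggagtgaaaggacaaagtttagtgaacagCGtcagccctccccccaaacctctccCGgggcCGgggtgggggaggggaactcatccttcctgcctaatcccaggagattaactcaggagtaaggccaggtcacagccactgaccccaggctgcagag
The upstream stretch held 20 CpG, more than 82.1% of 32851 RefSeq promoters of the same length, and the inner one held 4, more than 37.8% of them, where the median was 6. Neither held TGTGGT or its reverse complement ACCACA, a form of the core letters of the motif of RUNX factors, which 14% of the promoters held on either strand. Other forms of the core, such as TGCGGT, were not counted. Gene counts do not tell which of the starts was used, and methylation was not analysed here.

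Mgp encodes matrix Gla protein, a small secreted protein made by chondrocytes, vascular cells and osteoblast cultures that inhibits calcification. The gene (ENSMUSG00000030218, chromosome 6, 136872435 to 136875823) had 28.3, 23.8 and 18.7 CPM in WT and 14.95, 14.4 and 8.75 CPM in TCKO. The genotypes did not overlap, and replicate 3 was the lowest library in both. The level was 1.86-fold lower in TCKO (log2 fold change -0.89 ± 0.23 (SE), edgeR adjusted p = 0.0342), and the log2 difference was -0.91, -0.71 and -1.07 in replicates 1, 2 and 3. The call was lost when any one of the replicate 1 and 2 libraries was left out, with edgeR adjusted p-values of 0.128 without WT replicate 1, 0.108 without WT replicate 2, 0.0617 without TCKO replicate 1 and 0.0733 without TCKO replicate 2. Summing replicates 1 and 2 also ended it (edgeR adjusted p = 0.2005), and the adjusted p-values of all alternatives lay between 3.9e-08 and 0.2005.

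Cartilage cells also express Alpl and Mgp, and most markers of chondrocytes were lower in TCKO too. Of 10 chondrocyte markers fixed for this comparison, 9 were tested and 8 were lower in TCKO, with a median log2 fold change of -2.70 over the tested markers. Their summed level lay between 6395 and 8187 CPM in the WT libraries and between 737 and 1004 CPM in the TCKO libraries, and Chad, the untested one, had at most 5 counts in any library. Matn3 was the tested marker of this list that did not pass (0.81 ± 0.34, edgeR adjusted p = 0.143). Of 4 hypertrophic chondrocyte markers 3 were tested and 1 was lower, and they summed to between 294 and 417 CPM in WT and between 126 and 292 CPM in TCKO. The lower one was Col10a1 (log2 fold change -1.72 ± 0.33, edgeR adjusted p = 0.0108), whereas Mmp13 (0.04 ± 0.69, edgeR adjusted p = 0.975) and Sp7 (-1.59 ± 0.55, edgeR adjusted p = 0.0877) did not pass and Ihh was too low to test. Osteoblast markers summed to between 30210 and 32610 CPM in WT and between 14300 and 22460 CPM in TCKO, and Runx2 and Col1a1 were among the markers that were lower. Of the other osteoblast markers, Sp7, Col1a2 (-0.85 ± 0.27, edgeR adjusted p = 0.0676), Dlx5 (-0.33 ± 0.16, edgeR adjusted p = 0.198) and Ibsp (-0.38 ± 0.47, edgeR adjusted p = 0.620) did not pass. Osteocyte markers summed to between 122 and 136 CPM in WT and between 137 and 156.5 CPM in TCKO. Nearly all of this was Pdpn (means of 129 CPM in WT and 147 CPM in TCKO), the 1 tested, which did not pass (edgeR adjusted p = 0.156). Haematopoietic markers summed to between 394 and 697 CPM in WT and between 159 and 533 CPM in TCKO, and 2 of 6 were lower. Smooth muscle and pericyte markers summed to between 2133 and 2311 CPM in WT and between 2453 and 2917 CPM in TCKO, with 2 of 6 higher and 1 lower. Endothelial markers stayed under 3 CPM in sum in every library, and 0 of the 5 had enough counts for the test. The part of these cell types in the results was not tested. In these bulk samples fewer cells of a type and less RNA per cell cannot be told apart.

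The sodium-phosphate cotransporters moved the other way. Slc20a1 encodes PIT1 and Slc20a2 encodes PIT2, the widely expressed transporters that bring inorganic phosphate into cells. Slc20a1 (ENSMUSG00000027397, chromosome 2, plus strand, 129198764 to 129211616) was counted 1951, 2291 and 2837 times in WT libraries and 6378, 5851 and 6574 times in TCKO libraries. These correspond to 236, 229 and 344 CPM in WT and 728, 727 and 737 CPM in TCKO. The genotypes were far apart, and the TCKO libraries hardly differed among themselves. The level was 2.71-fold higher in TCKO (log2 fold change 1.44 ± 0.16 (SE), edgeR adjusted p = 0.00102), which ranked 281 of all tested genes from the highest fold change. The log2 difference was 1.62, 1.67 and 1.10 in replicates 1, 2 and 3. The call was kept under all 17 alternatives, with adjusted p-values up to 0.0433 when replicates 1 and 2 were summed. Exons of Gm4430 and 9830144P21Rik on the opposite strand cover 280 and 452 of its 5580 exon bases, and these genes held 374 and 361 counts over all libraries.

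The 250 bases before the outer start of Slc20a1 in RefSeq are shown as those of the gene of highest level among the 8, with CpG again in capitals, on the plus strand.
Slc20a1 outer start, chr2:129198523-129198772: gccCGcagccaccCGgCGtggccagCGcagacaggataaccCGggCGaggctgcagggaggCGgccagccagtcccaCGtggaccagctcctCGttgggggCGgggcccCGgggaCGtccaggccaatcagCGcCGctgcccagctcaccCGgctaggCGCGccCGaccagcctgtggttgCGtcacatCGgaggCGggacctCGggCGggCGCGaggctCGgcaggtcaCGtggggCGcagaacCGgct
This stretch held 29 CpG, more than 93.2% of the RefSeq promoters. It held TGTGGT once on the plus strand, beginning at position -77 relative to the start. The stretch before the inner start of Slc20a1 held 5 CpG and neither TGTGGT nor ACCACA. Of the other promoters found, that of Enpp1 held 17 CpG and ACCACA once, at position -144. Those of Phospho1 (34 CpG) and Phex (4 CpG) held neither TGTGGT nor ACCACA. That of Phospho1 did hold TGCGGT, a form that was not counted. RefSeq promoters were found for 5 of the 8 genes, and there was no entry for Smpd3, Slc20a2 or Mgp. A match is a description of the letters only.

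Slc20a2 (ENSMUSG00000037656, chromosome 8, 22476788 to 22569612) had 30.5, 32.8 and 34.8 CPM in WT and 47.9, 45.5 and 55.6 CPM in TCKO. All TCKO libraries were above all WT libraries. The level was 1.52-fold higher in TCKO (log2 fold change 0.60 ± 0.10 (SE), edgeR adjusted p = 0.00667), with log2 differences of 0.65, 0.47 and 0.67 in replicates 1, 2 and 3. Summing replicates 1 and 2 ended the call (edgeR adjusted p = 0.0934), and the adjusted p-values of all alternatives lay between 1.1e-07 and 0.0934. Smim19 on the opposite strand shares 95 of its 6216 exon bases.

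To compare the transporters within a library, the log2 ratio of Slc20a1 to Slc20a2 in RPKM was taken. It was 3.10, 2.95 and 3.45 in WT and 4.07, 4.15 and 3.88 in TCKO, so that the share of Slc20a1 was larger in every TCKO library. The difference was 0.87 (exact two-sided permutation p = 0.10, adjusted p = 0.133 over 4 ratios), and 0.10 is the smallest p that 3 libraries against 3 allow. Leaving out 1 library at a time gave differences between 0.76 and 1.01.

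Enpp1 encodes the ectoenzyme that makes pyrophosphate from extracellular ATP and so works against the enzyme of Alpl. The gene (ENSMUSG00000037370, chromosome 10, 24637914 to 24712159) was counted 110, 142 and 193 times in WT libraries and 229, 198 and 112 times in TCKO libraries. The levels were 13.3, 14.2 and 23.4 CPM in WT and 26.1, 24.6 and 12.6 CPM in TCKO. In replicates 1 and 2 the TCKO libraries were the higher ones, with log2 differences of 0.96 and 0.79, and in replicate 3 the TCKO library was the lower one, at -0.89. Over all libraries the log2 fold change of 0.32 ± 0.31 (SE) did not pass (edgeR adjusted p = 0.533). With replicates 1 and 2 only it was 0.88 ± 0.12 (edgeR adjusted p = 3.9e-09), in a fit that rests on the close pairs and called 45.1% of all tested genes. The replicate 3 pair has 1 library per genotype and no test.

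The ratio of Alpl to Enpp1 was taken because the enzymes break and make the same molecule. Its log2 value in RPKM was 1.72, 1.54 and 2.64 in WT and -1.92, -2.61 and -0.32 in TCKO. Alpl was thus the more abundant transcript per length in every WT library and Enpp1 in every TCKO library. The difference was -3.58 (exact two-sided permutation p = 0.10, the smallest possible, adjusted p = 0.133), and between -4.23 and -3.08 with 1 library left out.

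Phospho1 encodes a phosphatase that releases phosphate from phosphocholine inside matrix vesicles, and Smpd3 encodes neutral sphingomyelinase 2, which yields phosphocholine from sphingomyelin. Both were low. Phospho1 (ENSMUSG00000050860, chromosome 11, 95824499 to 95832140) had counts of 15, 15 and 3 in WT libraries and of 10, 8 and 18 in TCKO libraries, or 1.82, 1.5 and 0.364 CPM against 1.14, 0.994 and 2.02 CPM. Exons of Zfp652 on the same strand cover 1818 of its 2029 exon bases, and Zfp652 held 2881 counts over all libraries against 69 for Phospho1. Reads from these bases cannot be assigned to 1 gene, so the counts of Phospho1 are uncertain. If such reads were left out of the counting, its RPKM would be too low. Its log2 fold change was 0.17 ± 0.54 (SE, edgeR adjusted p = 0.858). Smpd3 (ENSMUSG00000031906, chromosome 8, 106252548 to 106337988) had counts of 19, 24 and 23 in WT libraries and of 11, 15 and 50 in TCKO libraries. The WT libraries lay close together, at 2.30, 2.395 and 2.79 CPM, and the TCKO libraries lay on both sides of them, at 1.26, 1.865 and 5.61 CPM. The log2 fold change was 0.23 ± 0.52 (SE, edgeR adjusted p = 0.7985), and -0.67 without TCKO replicate 3 (edgeR adjusted p = 0.1785). Prmt7 on the opposite strand shares 247 of its 5232 exon bases.

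A further pair of ratios set these genes against each other. The log2 ratio of Alpl to Phospho1 in RPKM was 2.11, 2.27 and 5.62 in WT and 0.01, -0.61 and -0.14 in TCKO, a difference of -3.58 (exact two-sided permutation p = 0.10, adjusted p = 0.133) that was -2.43 without WT replicate 3. The ratio of Smpd3 to Phospho1 differed by -0.33 (exact permutation p = 0.70, adjusted p = 0.70), with libraries of the genotypes interleaved. Both ratios carry the uncertainty of the Phospho1 counts.

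Phex encodes a membrane endopeptidase of osteoblasts and osteocytes whose loss causes phosphate wasting. The gene (ENSMUSG00000057457, chromosome X, 157162075 to 157415312) had counts of 3, 3 and 5 in WT libraries and of 13, 12 and 2 in TCKO libraries, or 0.363, 0.299 and 0.606 CPM against 1.48, 1.49 and 0.224 CPM. Both TCKO replicates 1 and 2 were above the WT libraries and TCKO replicate 3 below them. The gene was too low for the main test. In a fit with no filter on low counts its log2 fold change was 1.32 ± 0.66 (SE, edgeR adjusted p = 0.279). TCKO replicate 3, the library with fewest Phex counts, was also the library with 4583 counts of Xist and 0 of Ddx3y, where the others had at most 4 of Xist and at least 675 of Ddx3y. The part of this difference in the level of the X-linked Phex was not tested.

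**Figure D3:**
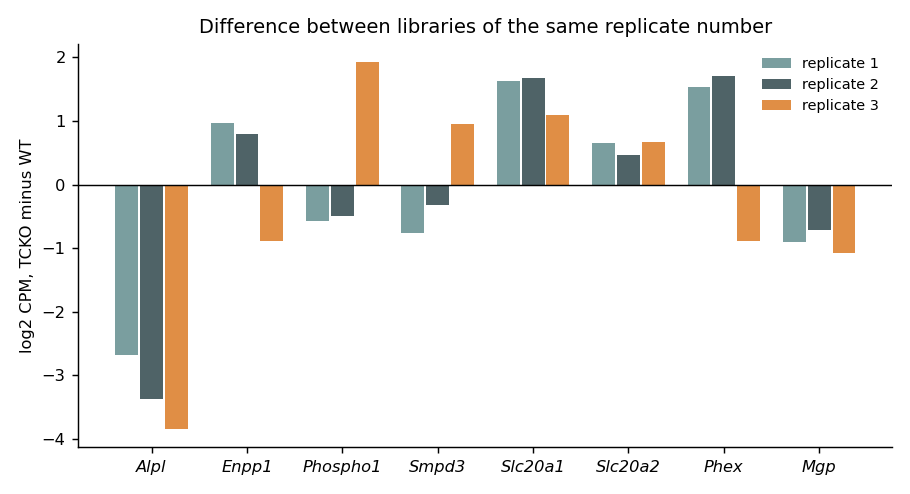
Difference in log2 CPM (prior count 2) between the TCKO and WT libraries of the same replicate number, 1 bar per replicate. Alpl and Mgp were below 0 and Slc20a1 and Slc20a2 above 0 in all 3 replicates, whereas Enpp1, Phospho1, Smpd3 and Phex changed sign in replicate 3.

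Of the 7 tested genes, 3 had a difference in replicate 3 opposite in sign to the mean of replicates 1 and 2 (42.9%), and so did 30.8% of all tested genes. The untested Phex did as well. The 4 genes that passed had the same sign in all replicates, which follows from their libraries not overlapping between the genotypes. The plot of fitted fold changes sets these 4 genes apart from the genes whose range over the alternatives crossed or came near 0.

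**Figure D4:**
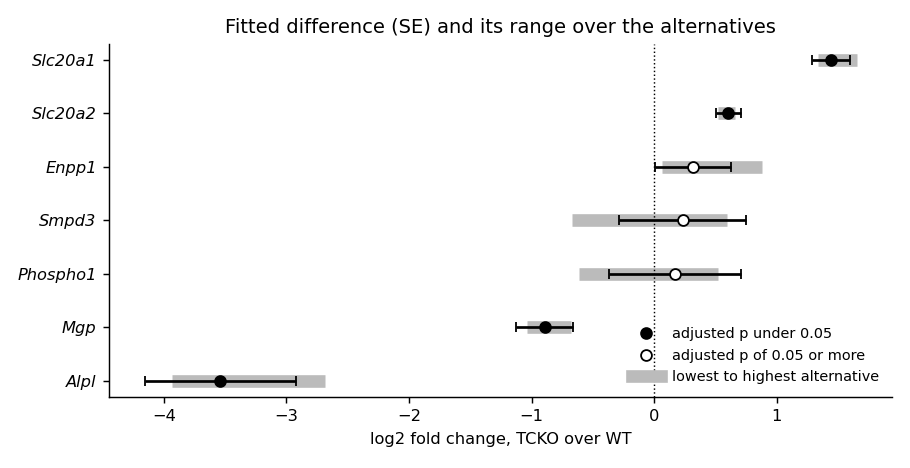
Log2 fold change of TCKO over WT with its SE (points, 6 libraries) for the 7 tested genes, and the lowest to highest value over the alternatives (grey). Filled points passed at an adjusted p under 0.05, and the ranges of Phospho1 and Smpd3 span 0 while that of Enpp1 runs from 0.07 to 0.88.

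The other genes of the pathway were taken from 8 lists holding 65 genes, of which 45 were tested. In TCKO 3 were higher and 11 lower, with a median log2 fold change of -0.16. Of all tested genes 9.07% were higher and 8.63% lower, with a median of 0.0002. Of these 14 calls, 8 were kept with each library left out in turn, those of Anxa6, Ece1, Sgms2, Slc37a2, Slc39a14, Sparc, Spp1 and Vkorc1. The other 6, of Ank, Anxa1, Anxa2, Entpd5, Gas6 and Ucma, were lost without 1 or more single libraries, always including WT replicate 1 and WT replicate 2. The count of lower genes was 6 without WT replicate 1, WT replicate 2 or TCKO replicate 1 and 7 without TCKO replicate 2. With replicates 1 and 2 summed 1 of the 14 was called, Sgms2 (edgeR adjusted p = 0.0407), and all 14 kept their sign under every alternative that tested them.

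Among genes of pyrophosphate and adenosine, 2 of 7 tested passed, both lower. Ank, which encodes a membrane protein that affects pyrophosphate outside the cell, fell from 67.8 ± 7.50 to 47.0 ± 6.66 CPM (SD, n = 3, log2 fold change -0.53, edgeR adjusted p = 0.0241). Entpd5, a nucleoside diphosphatase, fell from 28.0 ± 0.674 to 20.1 ± 2.27 CPM (-0.48, edgeR adjusted p = 0.0213).

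Of the genes of phosphate transport and sensing, 6 of 12 were tested and 1 was lower, Slc37a2, a sugar phosphate carrier (log2 fold change -0.98 ± 0.13, edgeR adjusted p = 0.00272). Xpr1, the phosphate exporter, did not pass (0.17 ± 0.09, edgeR adjusted p = 0.251). Fgfr1 had the highest level of this list, at 22.4 RPKM in WT and 23.2 in TCKO, and did not pass (0.05, edgeR adjusted p = 0.876). The cotransporter genes Slc34a1, Slc34a2 and Slc34a3 had at most 1 count in any library, and Fgf23, the phosphate-lowering hormone of osteocytes, had 0.

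In the list of phosphocholine and sphingomyelin, 1 of 8 tested genes was lower. Sgms2, a plasma membrane sphingomyelin synthase, fell from 40.6 ± 3.06 to 19.4 ± 2.92 CPM (log2 fold change -1.07 ± 0.13, edgeR adjusted p = 0.00159). Asah1, the acid ceramidase, had the highest level of the list and did not pass (0.10 ± 0.11, edgeR adjusted p = 0.581). Enpp6, an ectoenzyme that yields phosphocholine, was named after its values were seen. Its counts were 8, 13 and 8 in WT libraries and 0, 0 and 1 in TCKO libraries, too few for the test, a ratio of WT to TCKO of 27.5 with an exact 95% interval from 4.56 to 1124 that covers counting error only.

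Annexins, calcium-binding proteins found in matrix vesicles, went both ways, with 2 of 6 higher and 1 lower. Anxa6 rose from 128 ± 16.5 to 199.8 ± 6.60 CPM (log2 fold change 0.65, edgeR adjusted p = 0.00470) and Anxa1 from 228 ± 3.90 to 326.5 ± 68.65 CPM (0.52, edgeR adjusted p = 0.0380). Anxa2 fell from 560.5 ± 23.9 to 415.5 ± 69.0 CPM (-0.43, edgeR adjusted p = 0.0433). Anxa5, the highest of them per length over both genotypes together, did not pass (0.21 ± 0.08, edgeR adjusted p = 0.103). In WT alone Anxa2 was higher, at 150 RPKM against 131 for Anxa5.

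Of 10 acidic matrix substrates and mineral regulators, 5 were tested. Spp1, which encodes osteopontin, rose from 709 to 4348 RPKM, or from 1168 ± 515 to 7165 ± 3343 CPM (SD, n = 3). Its log2 fold change was 2.62 ± 0.44 (SE, edgeR adjusted p = 0.00669). Counts in replicates 1, 2 and 3 were 7407, 8469 and 14539 in WT and 78098, 74574 and 29517 in TCKO. The difference was thus smallest in replicate 3. The study itself reported less osteopontin in calvarial bone of newborn TCKO mice, by immunofluorescence. That was protein in tissue, whereas the values here are transcripts of cultured cells. Sparc, which encodes the collagen-binding protein osteonectin, fell from 9881 ± 974 to 5102 ± 363 CPM (log2 fold change -0.95 ± 0.12, edgeR adjusted p = 0.00198). Mepe, Dspp and Ahsg were at 0 counts in all libraries.

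The enzymes that carboxylate MGP and other Gla proteins with vitamin K were examined beside Mgp. Of 5 tested genes of this list 3 were lower. Vkorc1, which recycles vitamin K, fell from 32.3 ± 1.42 to 22.9 ± 1.29 CPM (log2 fold change -0.50 ± 0.09, edgeR adjusted p = 0.00920). The carboxylase gene Ggcx had a log2 fold change of -0.23 ± 0.08 and did not pass (edgeR adjusted p = 0.0941). The genes of the Gla proteins GAS6 (Gas6, -0.97 ± 0.21, edgeR adjusted p = 0.0163) and UCMA (Ucma, -3.51 ± 0.78, edgeR adjusted p = 0.0195) were lower. Ucma is itself a cartilage gene.

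Alkaline phosphatase needs zinc, and of 5 zinc transporters 1 was lower, Slc39a14, which fell from 214 ± 26.65 to 131.5 ± 1.94 CPM (log2 fold change -0.70 ± 0.10, edgeR adjusted p = 0.00278). Slc39a13, the highest of them per length, did not pass (-0.31 ± 0.12, edgeR adjusted p = 0.125). Of the endopeptidases related to PHEX 3 were tested, and Ece1, the endothelin-converting enzyme, was lower (-0.63 ± 0.11, edgeR adjusted p = 0.00696).

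**Figure D5:**
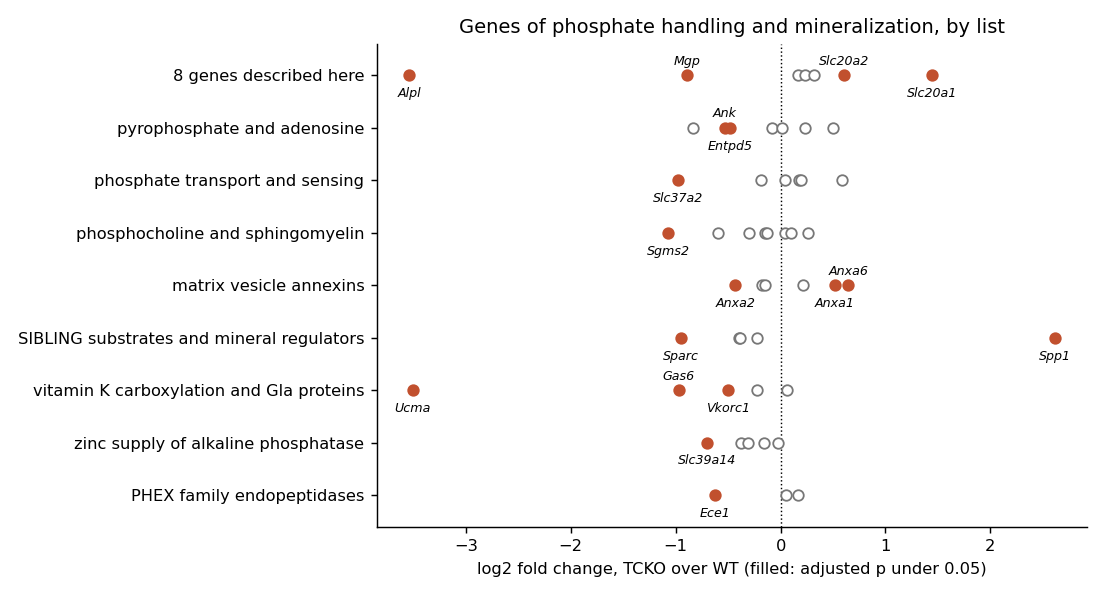
Log2 fold change of TCKO over WT for every tested gene of the 8 genes and of 8 lists of related genes, 1 point per gene, filled and named where the adjusted p was under 0.05. Of 45 tested genes in the 8 related lists, 11 were lower and 3 higher (all tested genes, 8.63% and 9.07%). With replicates 1 and 2 summed, 1 of these 14 calls was kept. The lowest values were those of Alpl (-3.54) and Ucma (-3.51).

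Genes with the most similar profiles were sought among 10956 tested genes with a mean of at least 50 counts, by the root mean square difference over 6 libraries of log2 CPM profiles centred on their own means. For Alpl these were Panx3 and Tnn, at 0.50 and 0.52 against a spread of 1.79 of Alpl about its own mean. For Slc20a1 they were Msi1 and Ptprk (0.10 and 0.11 against 0.76), for Slc20a2 Lpcat1 and Dot1l (both 0.03 against 0.32), and for Mgp Gm38317 and Sobp (0.06 and 0.08 against 0.54). For Enpp1 they were Egln3 and Ccl9 (0.13 and 0.15 against 0.44), and for Smpd3 Id4 and Perp (0.12 and 0.22 against 0.60). For Phospho1, Iqgap2 and Ccn3 came closest (0.25 and 0.26 against 0.64). These distances are a description over libraries that share genotype and replicate structure.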

How the data were processed

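Per the labels and the methods of the study, poly(A) RNA libraries of cultured calvarial osteoblasts were aligned with STAR 2.7.0e to GRCm38 (Ensembl annotation) and counted per gene with featureCounts 2.0.0. The deposited values are raw counts of 55471 genes in 6 libraries, with the exon length of each gene. The library kit marks strand, but the strand setting of the counting and the treatment of reads shared between genes are not given in the sources used here, so overlapping genes are less certain. Symbols were found for 55144 genes. The 8 genes, the gene lists and the alternatives were chosen with earlier results of these data known.

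Counts were tested with edgeR 4.0.16 (quasi-likelihood test, TMM scaling, default filterByExpr, no covariates, R 4.3.3) in all 6 libraries, with Benjamini-Hochberg adjustment over 13826 genes. CPM and RPKM used the TMM-scaled library sizes, log2 values a prior count of 2. SEs were derived from the F statistic. Ratios were compared by exact permutation. Named were the 8 genes, Tet1 to Tet3, of each list the genes that passed (at most 4) and that of highest RPKM, and the 2 closest profiles per tested gene, and, after their values were seen, Xpr1, Ggcx, Enpp6, cell type markers and untested genes. The scripts were tested on simulated data. The alternatives were RLE and upper-quartile scaling, a filter of only 1 count in all or of a mean of 50 counts, DESeq2 1.42.0 with the same genes or with the study's RPKM minimum of 0.24, a robust fit, a replicate block, replicates 1 and 2 summed (with and without block) or alone, a prior count of 0.5 for ratios, and each library left out. Same-numbered libraries deviated together from the group means, with correlations across genes of 0.20, 0.21 and 0.35 for numbers 1, 2 and 3, all over the 0.1 at which numbers were taken to pair the samples. Crossed numbers 1 and 2 correlated alike (0.19 and 0.22) and either with 3 negatively (-0.28 to -0.25), so these values set replicate 3 apart and do not tell number 1 from 2. Promoters came from RefSeq (GRCm38.p6). Intervals cover counting error only. The result of 1 osteoblast marker is not reported here.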

Additional observations from a re-analysis of the deposited data

How the results depend on the processing

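Slc20a1 kept its direction and call under all 17 alternatives (log2 fold change 1.33 to 1.65), and Alpl and Slc20a2 kept their direction throughout and lost their call with replicates 1 and 2 summed only. That edgeR fit of 2 samples against 2 gave -3.73 for Alpl, 0.62 for Slc20a2 and -0.91 for Mgp without a call, 217 genes higher and 169 lower, and of the pathway genes 0 higher (3 at an unadjusted p under 0.05) and 1 lower. Adding the replicate block to this summed fit, 584 genes were higher and 566 lower, with 1 and 6 pathway genes, and all 4 of the genes were called. The replicate block on 6 libraries gave 1664 genes higher and 1585 lower, with 4 and 13 pathway genes, and changed no call of the 7 genes. Replicates 1 and 2 alone gave 3121 higher and 3116 lower, 12 and 19 pathway genes, 0.88 for Enpp1 with a call, and opposite signs for Phospho1 (-0.61) and Smpd3 (-0.60), without a call. Leaving out 1 library gave 603 to 1613 genes higher and 550 to 1509 lower, the counts falling by over 1.5 times without replicate 1 or 2 of either genotype (647, 603, 679 and 706 higher and 589, 550, 613 and 636 lower without WT replicates 1 and 2 and TCKO replicates 1 and 2), and 2 to 4 pathway genes higher and 6 to 13 lower, with 6 without WT replicate 1, WT replicate 2 or TCKO replicate 1 and 7 without TCKO replicate 2. Mgp ranged from -1.03 to -0.68 in these fits, Phospho1 from -0.24 to 0.52, Smpd3 from -0.67 to 0.59, and the log2 ratio of Smpd3 to Phospho1 from -0.72 to 0.30. The sign turned for Phospho1 without WT replicate 3 (-0.24) or TCKO replicate 3 (-0.20), for Smpd3 without TCKO replicate 3 and for that ratio without WT replicate 3. Other scalings, filters, DESeq2 and the robust fit changed no call of the genes they tested, and the filter of a mean of 50 counts left out Phospho1 and Smpd3. Why results differed between these fits was not tested. No library held over 50 counts of Phospho1, Smpd3 or Phex, and the SEs of their log2 fold changes were 0.54, 0.52 and 0.66 (Phex without the filter).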
